A study of Mus musculus with 8 samples.

Results

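The mitochondrial solute carriers of family 25 (SLC25) were described in livers of mice that lack miR-33 in hepatocytes. The members are the 41 genes, of 17810 listed in the deposited table, whose symbol is Slc25a followed by a number, together with Ucp2. Slc25a13, Slc25a15, Slc25a17, Slc25a20 and Slc25a51, which also carry such a symbol, were left out by the rule. RNA-Seq was done on 4 WT and 4 HKO livers, with 1 library per liver. The HKO mice carry miR-33 alleles flanked by loxP sites that are removed by Cre recombinase under the albumin promoter, which is active in hepatocytes, and miR-33 itself was not measured in any cell type here. Both groups are male littermates that were put on a fatty diet poor in choline (CD-HFD) at 8 weeks of age, were fed it for 3 months and were 5 months old at collection. The comparison asks which of these carrier RNAs differ between HKO and WT livers while steatosis develops on this diet.

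Carriers of this family sit in the inner mitochondrial membrane, apart from a few in other membranes, and exchange ions, nucleotides, cofactors, carboxylates and amino acids between the cytosol and the matrix. In hepatocytes they link mitochondrial oxidation to processes in the cytosol: citrate export feeds lipid synthesis, ADP/ATP exchange and phosphate uptake serve oxidative phosphorylation, and dicarboxylate and amino acid exchange serve gluconeogenesis and the urea cycle. The carriers are made from nuclear genes and are imported into the inner membrane by the translocase of the carrier pathway.

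The miR-33 seed and its matches in the carriers are shown because a match in the 3'UTR is where a miR-33 target would be sought. The mature miR-33-5p, from RefSeq on GRCm38.p6 (chr15:82198127-82198147, plus strand), is given with its seed, bases 2 to 8, in capitals.
mmu-miR-33-5p: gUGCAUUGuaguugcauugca
A match was counted as 7 bases complementary to the seed (CAATGCA), or 6 of them followed by an A (AATGCAA), on the sense strand of the longest 3'UTR that GENCODE M21 annotates on GRCm38. Both together give the 8 bases CAATGCAA. Such a match was found in 6 of the 40 members with an annotated 3'UTR, or 15%, and in 16.1% of the 11614 tested genes with one. Of these members, Slc25a25, Slc25a40 and Slc25a23, which transport ATP-Mg or have been tied to glutathione uptake, hold their matches within the gene as the deposited table lists it. Those of Slc25a12 and Slc25a32 lie beyond its listed end. The matched bases are in capitals below, with 8 bases on either side.
Slc25a25 (chr2:32414570-32414577, minus strand): gcaaagatCAATGCAAaaatcacc
Slc25a40 (chr5:8454514-8454521, plus strand): taagatgcCAATGCAAgaaatgct
Slc25a23, first match (chr17:57044779-57044785, minus strand): aacccaacCAATGCAttttcctct
Slc25a23, second match (chr17:57044410-57044416, minus strand): ctgattccCAATGCAtggaagcat
Slc25a12 (chr2:71271317-71271323, minus strand): atccagtaCAATGCAcgctcctga
Slc25a32 (chr15:39093204-39093210, minus strand): aaagagtgCAATGCAgtagctggg
A match is a description of these letters and not a site shown to bind.

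The totals per liver ranged from 12174339 to 18735785 estimated counts, and 3 counts, the limit that a count of 0 allows, correspond to between 0.149 and 0.255 CPM, the counts scaled to a common library size with TMM factors. This limit covers counting error only. Of the hepatocyte markers Alb, Ttr, Apoa1, Hnf4a, Cyp2e1 and Serpina1c, 2 of 6 were higher and 0 lower in HKO livers by edgeR (quasi-likelihood, Benjamini-Hochberg adjusted p under 0.05, the rule behind every call here). The 2 called were Hnf4a and Serpina1c, at log2 fold changes of 0.36 and 0.90, where 1.66% of all genes tested were called higher. Apoa1 and Cyp2e1 were at 0.49 and 0.34 and Alb and Ttr at -0.03 and -0.08, and none of these was called. One library stood apart in other cell types: in HKO replicate 2 the cholangiocyte markers Epcam and Krt19 were 16.5 and 16.9 CPM, against at most 1.02 and 1.07 CPM in the other 7 livers. Krt7 was also highest there, at 3.32 CPM, while Sox9, the other marker of the list, was 7.87 CPM there and highest in HKO replicate 3, at 15.5 CPM. Without this liver the members called were also 2, both lower. Of 6 stellate cell markers Col1a1 and Col3a1 were called lower, where 3.37% of all genes tested were. The other stellate cell markers Lrat, Dcn, Des and Pdgfrb had log2 fold changes of -0.18, -0.07, 0.18 and -0.48 and were not called. No call was made for the 5 endothelial markers, the 2 tested cholangiocyte markers or the 1 tested lymphocyte marker. Over all genes tested, 5.03% were called. The S numbers that end the column names run through the HKO livers and then the WT livers. What they stand for is not given in the sources used here, and whatever it is cannot be told apart from genotype. In whole liver, fewer cells of a type and less RNA per cell cannot be told apart.

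Among the mitochondrial carriers, the RNAs of Slc25a10 and Slc25a47 fell in HKO livers, and no member was called higher. Of the 41 members, 36 had enough counts to be tested. Of these 36, 2 were called lower, or 5.56%, where 3.37% of all genes tested were called lower. None was called higher, where 1.66% of all genes tested were. In all, 5.03% of the 12395 genes tested were called. The count of members called is 2 of 36, and its share is close to that of all genes. DESeq2 and limma-voom, which called 8.18% and 4.86% of all genes, also called 0 members higher. DESeq2 called 3 members lower, the third being Ucp2, where it called 5.07% of all genes lower. At an unadjusted p under 0.05, 5 of the 36 members were found, beside 19.8% of all genes, and all 5 were lower: Slc25a10, Slc25a47, Ucp2, Slc25a42 and Slc25a37. The median log2 fold change of the 36 members was -0.05, beside 0.01 over all genes tested. On TMM scaling 15 members lay above 0 and 21 below. With total count scaling, which moved the median of all genes to -0.08, these numbers were 8 and 28.

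**Figure D1:**
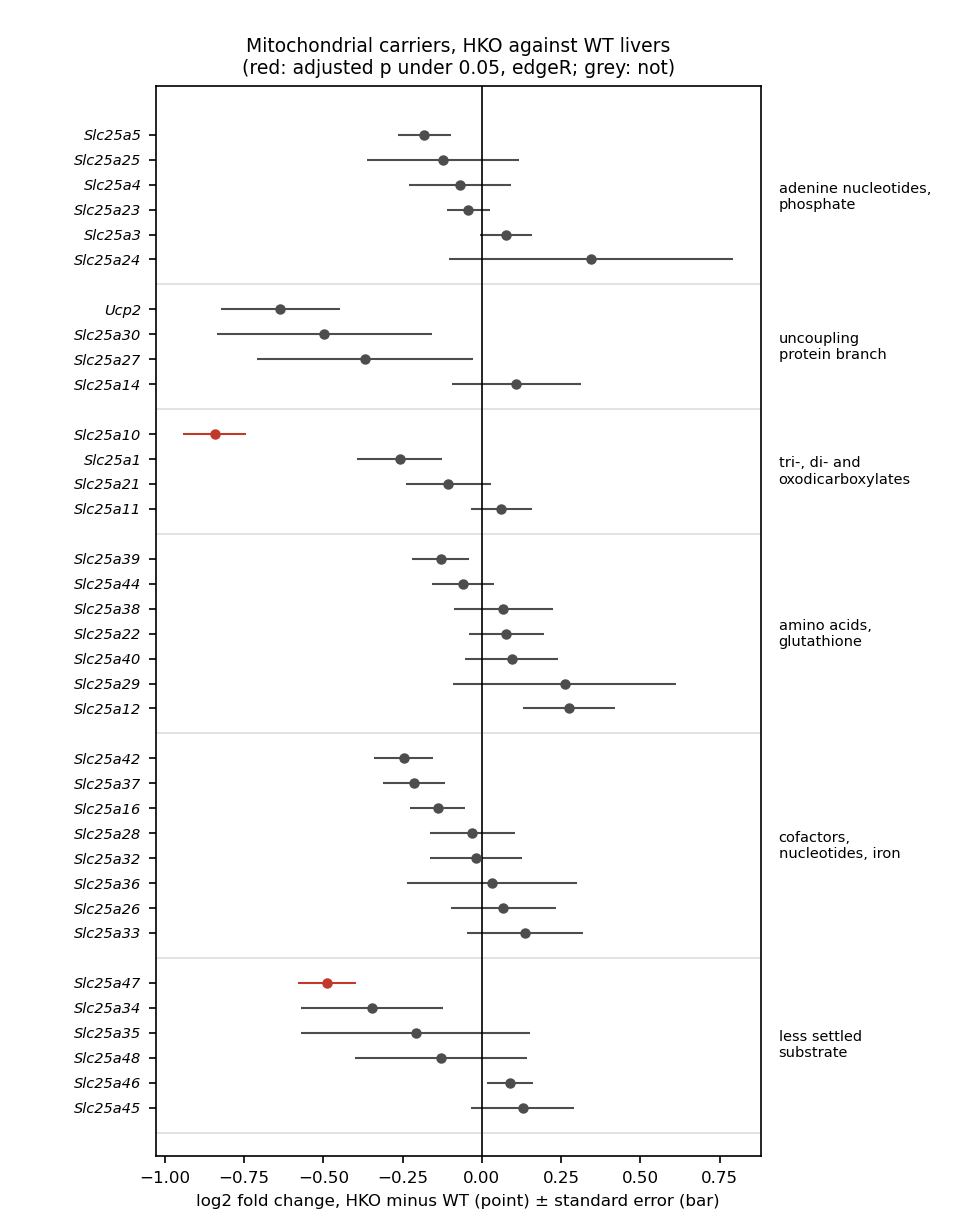
Log2 fold change, HKO minus WT, of 35 of the 36 tested carriers (points) with the standard error of edgeR's model (bars), grouped by what they transport. Slc25a10 at -0.84 and Slc25a47 at -0.49 are drawn in red because their adjusted p was under 0.05, and the other 33 drawn lie between -0.64 and 0.35.

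Slc25a10 encodes the dicarboxylate carrier, which exchanges malate or succinate for phosphate. It lies on chromosome 11 of GRCm38 from 120491837 to 120501162, on the plus strand, and its longest coding transcript has 11 exons. In WT livers 1 to 4 it was 91.6, 114, 101 and 92.8 CPM, and in HKO livers 1 to 4 it was 56.3, 60.4, 47.7 and 58.6 CPM. Every HKO liver was below every WT liver, and the highest HKO liver was at 60.4 CPM against 91.6 CPM in the lowest WT liver. The mean fell from 99.9 ± 10.4 CPM (SD, n = 4) to 55.7 ± 5.62 CPM (SD, n = 4), which is 44.2% lower. The log2 fold change was -0.84 ± 0.10 (SE, edgeR adjusted p = 0.00123). Leaving out any 1 of the 8 livers kept the call, at log2 fold changes from -0.88 to -0.77. The annotated 3'UTR of Slc25a10, 1012 bases, holds 0 matches to the miR-33 seed.

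Slc25a47 encodes a carrier made mainly in liver, whose substrate is less settled. It lies on chromosome 12 from 108851129 to 108856816, on the plus strand, with 5 exons, and its neighbour in the family, Slc25a29, is 15251 bases away. Its values were 274, 339, 259.7 and 272 CPM in WT livers 1 to 4 and 200.4, 207, 197 and 213 CPM in HKO livers 1 to 4. The genotypes did not overlap, the HKO livers lay within a narrow range and WT replicate 2 was the highest of all. The mean fell from 286 ± 35.5 CPM (SD, n = 4) to 204 ± 7.17 CPM (SD, n = 4), 28.7% lower. This is a fitted log2 fold change of -0.49 ± 0.09 (SE, edgeR adjusted p = 0.0132). Leaving out any 1 liver kept the call, and the edgeR adjusted p was then at most 0.0396. The neighbour Slc25a29, a carrier of basic amino acids, was between 0.496 and 1.01 CPM in the 8 livers, with a fitted log2 fold change of 0.26 ± 0.35 (SE, edgeR adjusted p = 0.749). The 3'UTR of Slc25a47, 1189 bases, holds 0 matches to the seed.

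In 4 of the 36 tested members, or 11.1%, the genotypes were fully separated, with no HKO liver inside the WT range, as in 12.5% of all genes tested. All 4 were lower in HKO livers: Slc25a10, Slc25a47, Slc25a42 and Slc25a5. The background for HKO values all below WT values was 7.19%, and 0 members had HKO values all above WT values, where 5.34% of all genes did. Slc25a42, which imports coenzyme A, was 49.2, 61.1, 54.95 and 51.5 CPM in WT livers and 39.8, 47.1, 48.9 and 46.8 CPM in HKO livers. The gap between the groups was small, from 48.9 to 49.2 CPM, and the log2 fold change was -0.25 ± 0.09 (SE, edgeR adjusted p = 0.17). Slc25a5, described with the adenine nucleotide carriers, had a gap from 385 to 395 CPM.

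**Figure D2:**
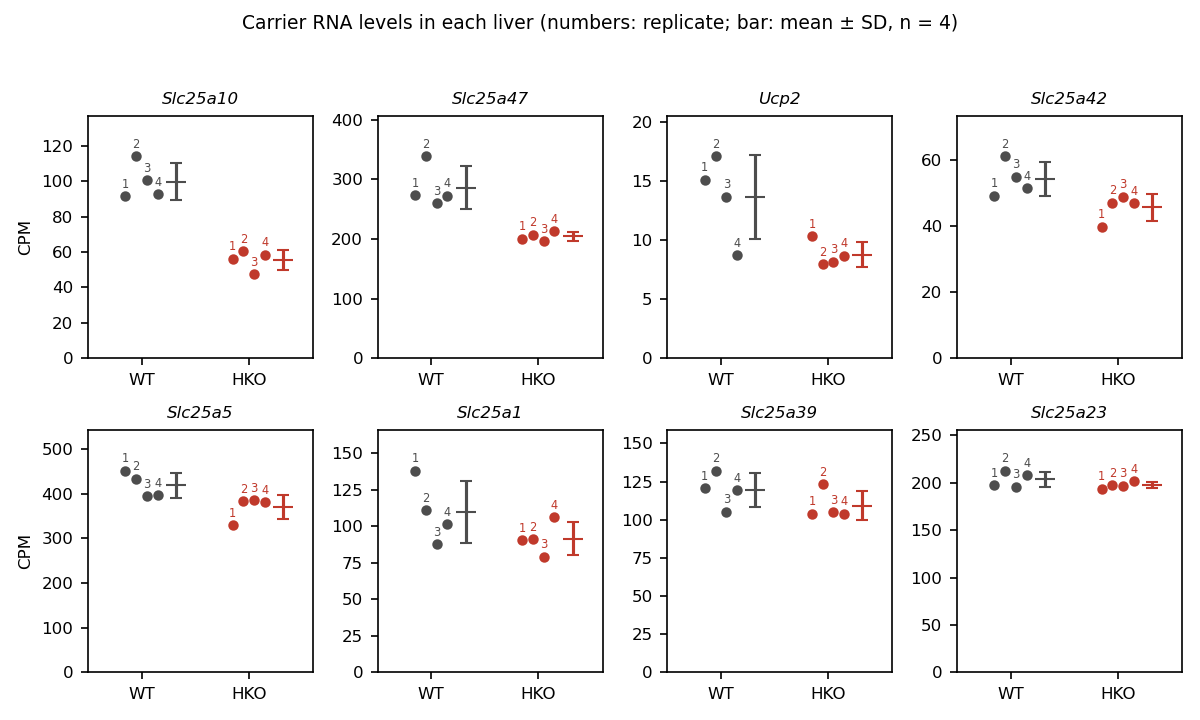
CPM of 8 carriers in each liver, WT in grey and HKO in red, with the replicate number beside each point and the mean ± SD of 4 livers at the side. The points of Slc25a10, Slc25a47, Slc25a42 and Slc25a5 do not overlap between the genotypes, and those of Ucp2, Slc25a1, Slc25a39 and Slc25a23 do.

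Levels were compared between carriers per length, as CPM per kilobase of the longest annotated transcript. Slc25a5, the ADP/ATP exchanger ANT2, was highest, at 338 ± 22.7 CPM per kilobase (SD, n = 4) in WT and 298 ± 21.2 in HKO livers. On this length its share of the summed level of all members per kilobase was 32.2% to 34.5% in WT and 31.6% to 34.5% in HKO livers. Slc25a47 was next, at 151 ± 18.8 CPM per kilobase in WT and 108.04 ± 3.79 in HKO livers. The level of Slc25a39 was 70.8 ± 6.53 CPM per kilobase in WT and 64.7 ± 5.63 in HKO livers, that of Slc25a1 65.8 ± 12.7 and 54.98 ± 6.61, and that of Slc25a23 60.5 ± 2.47 and 58.7 ± 0.963 (SD, n = 4 each). The neighbours from Slc25a39 to Slc25a23 in this order lay within their spread in WT livers, while on this length Slc25a5 and Slc25a47 stood clear of each other and of the rest in both genotypes. The place of Slc25a3 depends on the transcript. It was 51.7 ± 4.35 CPM per kilobase in WT livers, 6th in the order, over its longest transcript, which retains an intron, while over its longest coding transcript it was 129 ± 10.9 in WT and 136 ± 7.35 in HKO livers. On that length it lay below Slc25a47 in WT livers and above it in HKO livers. Over the longest annotated transcripts Slc25a47 held 13.7% to 16.5% of the summed level per kilobase in WT and 11.6% to 12.6% in HKO livers. Shares over coding transcripts were not computed, and these shares depend on the transcripts chosen. Slc25a27, Slc25a29 and Slc25a35 were under 0.5 CPM per kilobase in both genotypes, and Slc25a35 was the lowest tested member in each.

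**Figure D3:**
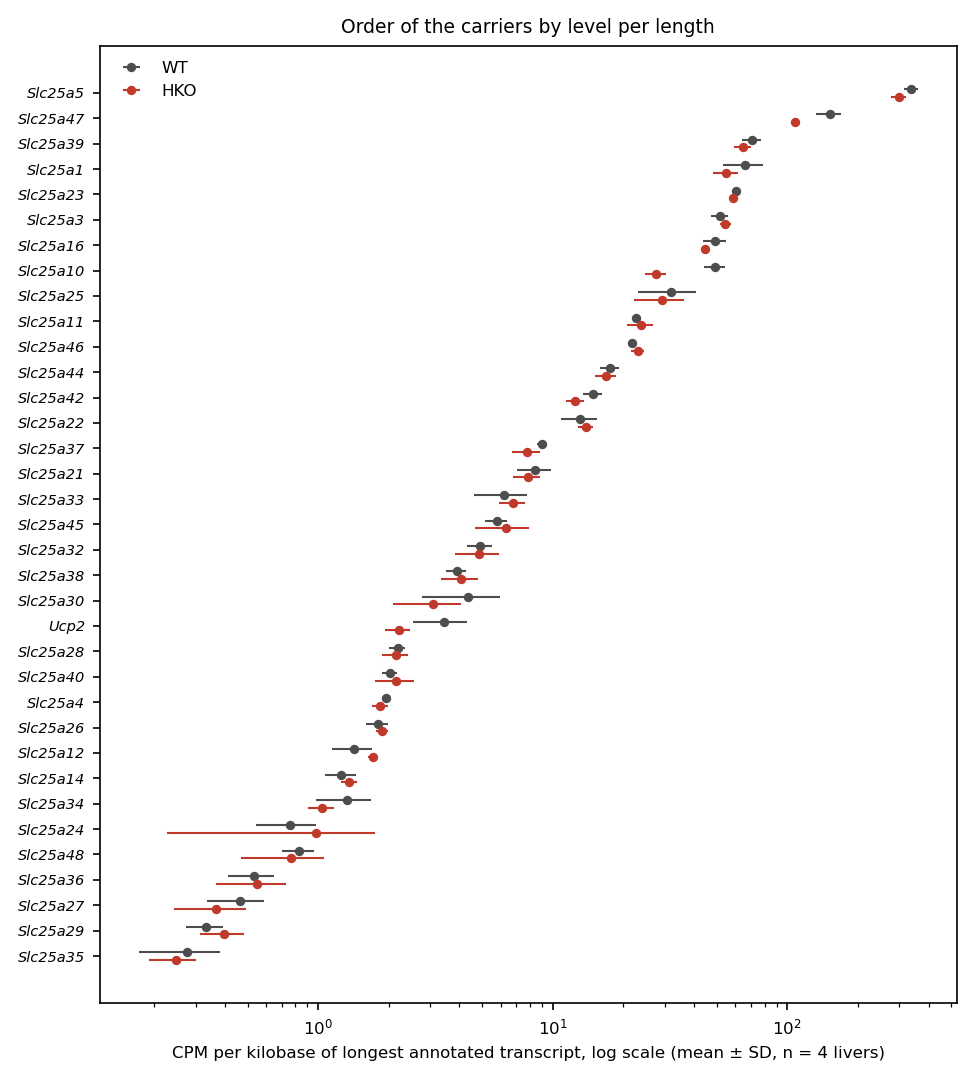
Mean level ± SD (n = 4 livers) of 35 of the 36 tested carriers in WT (grey) and HKO (red) livers, in CPM per kilobase on a log scale, ordered by level. Slc25a5 leads at 338 CPM per kilobase in WT livers and the points of the genotypes overlap for most carriers.

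The adenine nucleotide and phosphate carriers exchange ADP and ATP across the inner membrane and bring in phosphate. Of the 7 members of this group 6 were tested and 0 were called, where 5.03% of all genes tested were called. In groups this small, here and below, 0 or 1 call does not set a group apart. The median log2 fold change of this group was -0.06. Slc25a5 was 452, 434, 395 and 397 CPM in WT livers 1 to 4 and 330.4, 383, 385 and 381 CPM in HKO livers 1 to 4. HKO replicate 1 was the lowest of all. Its log2 fold change was -0.18 ± 0.08 (SE, edgeR adjusted p = 0.261), and the deposited counts of this gene were whole numbers in all livers to within 0.05. Its paralog Slc25a4, ANT1, the form of heart and muscle, was 3.73 ± 0.133 CPM in WT and 3.54 ± 0.278 in HKO livers (SD, n = 4), which is 1.94 and 1.84 CPM per kilobase. Slc25a3, the phosphate carrier, was 209 ± 17.6 CPM and 219.8 ± 11.8 CPM, with a fitted log2 fold change of 0.07 ± 0.08 (SE). Of the calcium-regulated carriers of ATP-Mg and phosphate, Slc25a23 was 197, 213, 196 and 208 CPM in WT and 194, 197, 197 and 201.5 in HKO livers, with a fitted log2 fold change of -0.04 ± 0.07 (SE). Its lowest and highest livers were 194 and 213 CPM, and the groups overlapped. Slc25a25, which holds an 8-base seed match, spread from 77.1 to 157 CPM in WT and from 90.4 to 152 CPM in HKO livers. Its coefficient of variation was 27.7% and 24.3%, where the median of the tested members was 12.5% in both genotypes, and it was singled out after its values were seen. Slc25a31, ANT4, the form of testis, had at most 3 counts in any liver and was not tested.

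The third ATP-Mg carrier, Slc25a24, was 2.56, 2.51, 3.58 and 1.77 CPM in WT livers 1 to 4 and 2.02, 7.26, 1.92 and 2.30 CPM in HKO livers 1 to 4. HKO replicate 2 was above all other livers, and the other 3 HKO livers lay within the WT range. The log2 fold change was 0.35 ± 0.45 (SE, edgeR adjusted p = 0.737) with all livers and -0.34 (adjusted p = 0.558) without HKO replicate 2. The 4 cholangiocyte markers summed to 44.6 CPM in that liver, 6.75 to 16.4 CPM in the other HKO livers and 6.17 to 8.94 CPM in WT livers, of which Sox9 gave 15.5 CPM in HKO replicate 3. Their part in the level of Slc25a24 was not tested.

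The branch named after the uncoupling proteins, which were first known for letting protons leak back into the matrix, had 4 tested members. Of these 0 were called, beside 5.03% of all genes tested. The median log2 fold change of the branch was -0.43. Ucp2, a transporter of this branch known from macrophages and from fatty livers, was 15.1, 17.1, 13.7 and 8.74 CPM in WT livers 1 to 4 and 10.3, 7.95, 8.17 and 8.68 CPM in HKO livers 1 to 4. In the WT group replicate 4 lay among the HKO livers, so the genotypes overlapped. The log2 fold change was -0.64 ± 0.19 (SE), with an edgeR adjusted p of 0.0783, and 0.138 by limma-voom. DESeq2 called Ucp2 (adjusted p = 0.0371). Without WT replicate 4 the log2 fold change was -0.80 (edgeR adjusted p = 0.0111), and without WT replicate 2 it was -0.51 (adjusted p = 0.245). The 9 markers of Kupffer cells and macrophages summed to between 128 and 286 CPM in WT and between 94.3 and 278 in HKO livers. Of these 0 of 9 were called, beside 5.03% of all genes tested. None of the 9 was at 0. Of the 5 markers of lipid-associated macrophages, Cd9 and Spp1 were tested and were not called. Gpnmb was between 0.768 and 1.49 CPM in WT livers and at most 0.17 CPM in HKO livers, which is within the limit of 3 counts. Gpnmb passed the filter on low counts through the WT livers alone, so its values are given without a test. The sum of the 5 was 70.3, 54.0, 51.2 and 53.6 CPM in WT livers 1 to 4. In HKO livers 1 to 4 it was 38.9, 84.2, 45.6 and 41.8 CPM. Only HKO replicate 2, where Spp1 alone gave 63.1 CPM, was not below every WT liver. The part of these cells in the level of Ucp2 was not tested. Slc25a30, known from kidney, was 7.69 to 20.5 CPM in WT and 6.90 to 14.8 in HKO livers, with replicate 4 the lowest in each genotype. Its log2 fold change was -0.50 ± 0.34 (SE, edgeR adjusted p = 0.481). Slc25a27 and Slc25a14, known from brain, were between 0.62 and 2.83 CPM in all livers and were not called.

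**Figure D4:**
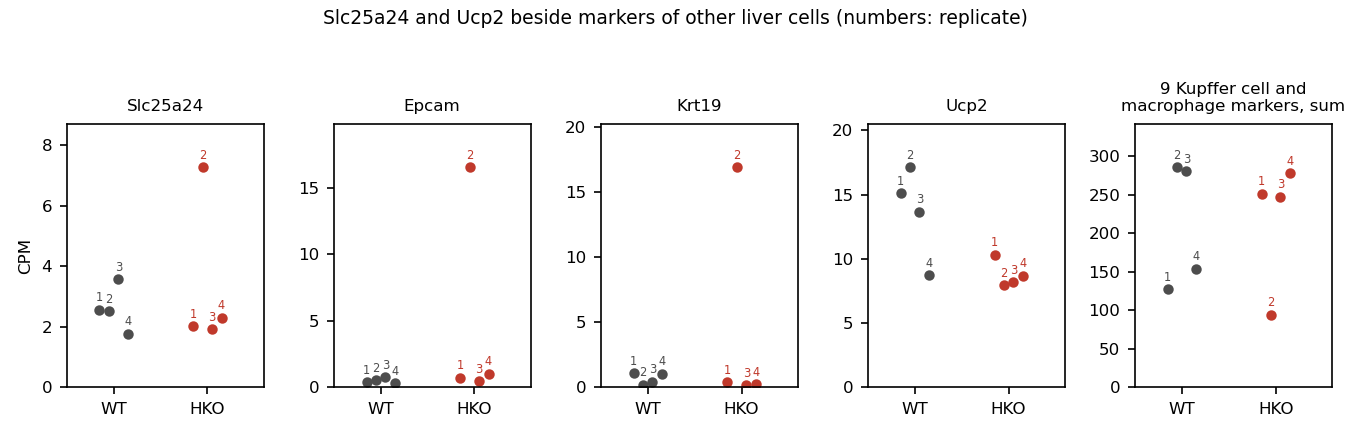
CPM in each liver of Slc25a24, the cholangiocyte markers Epcam and Krt19, Ucp2, and the sum of 9 Kupffer cell and macrophage markers, WT in grey and HKO in red, with replicate numbers. HKO replicate 2 is the highest liver for Slc25a24 (7.26 CPM), Epcam (16.5 CPM) and Krt19 (16.9 CPM), and WT replicate 4 lies among the HKO livers for Ucp2 (8.74 CPM).

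The tricarboxylate and dicarboxylate carriers move citrate, malate, succinate and 2-oxoglutarate. Of the 4 tested members 1, Slc25a10, was called, where 5.03% of all genes tested were. The median log2 fold change of the 4 was -0.18. Slc25a1, the citrate carrier that exports acetyl units for lipid synthesis, was 138, 111, 87.9 and 101 CPM in WT and 90.3, 90.9, 79.2 and 106 in HKO livers. WT replicate 1 was the highest liver and the groups overlapped. Its log2 fold change was -0.26 ± 0.13 (SE, edgeR adjusted p = 0.323), and leaving out 1 liver at a time gave values between -0.35 and -0.13. Slc25a11, the oxoglutarate carrier of the malate-aspartate shuttle, was 37.3 to 40.0 CPM in WT and 35.2 to 46.1 in HKO livers. Slc25a21, the oxodicarboxylate carrier of lysine breakdown, was 18.9 to 26.3 and 16.9 to 23.3 CPM, and it overlaps Pax9 on the other strand. Their log2 fold changes were 0.06 ± 0.10 (SE) and -0.11 ± 0.13 (SE).

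Among the amino acid and glutathione carriers 0 of 7 tested members were called, where 5.03% of all genes tested were. The median log2 fold change of the 7 was 0.08. Slc25a39, tied to glutathione uptake, was 121, 132, 105 and 119 CPM in WT and 104, 123, 105 and 104 in HKO livers, with a fitted log2 fold change of -0.13 ± 0.09 (SE, edgeR adjusted p = 0.475). The groups overlapped through HKO replicate 2. Its paralog Slc25a40 was lower in level, at 2.01 CPM per kilobase against 70.8 in WT livers (3.23 over its longest coding transcript, since its longest one retains an intron), with a fitted log2 fold change of 0.09 ± 0.15 (SE). Slc25a12, an aspartate-glutamate carrier of brain and muscle, was 7.43 to 10.7 CPM in WT and 10.1 to 11.3 in HKO livers, and its log2 fold change of 0.28 ± 0.15 (SE, edgeR adjusted p = 0.329) was the largest of the group. Slc25a22, a glutamate carrier, was 73.4 ± 13.0 CPM in WT and 77.5 ± 5.70 in HKO livers, and Slc25a44, a carrier of branched-chain amino acids, was 62.7 ± 5.84 and 60.2 ± 6.21 CPM (SD, n = 4). Slc25a38, which brings in glycine for heme synthesis, was 6.97 ± 0.667 and 7.29 ± 1.31 CPM. The other glutamate carrier, Slc25a18, had at most 2 counts, and the ornithine carrier Slc25a2 at most 4 counts in any liver, and neither was tested.

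Of the 9 cofactor, nucleotide and iron carriers, all tested, 0 were called, where 5.03% of all genes tested were. The median log2 fold change of the 9 was -0.02. Slc25a16, which has been tied to coenzyme A, was the highest in level per kilobase, at 49.3 CPM per kilobase in WT and 44.7 in HKO livers, and its log2 fold change was -0.14 ± 0.09 (SE). The mitoferrins import iron for heme and iron-sulfur clusters. Slc25a37, mitoferrin 1, was 53.2 ± 2.53 CPM in WT and 45.9 ± 6.20 in HKO livers, with HKO replicate 2 at 54.97 CPM and the other HKO livers at 41.4 to 44.4 CPM, below the WT range of 51.3 to 56.8 CPM. Its log2 fold change was -0.21 (edgeR adjusted p = 0.251). Without HKO replicate 2 it was -0.31 (edgeR adjusted p = 0.0691). Leaving out 1 liver at a time gave values between -0.31 and -0.17, and 0 of these 8 fits called it. Slc25a28, mitoferrin 2, was 8.13 ± 0.645 and 7.98 ± 1.02 CPM, with a fitted log2 fold change of -0.03 ± 0.13 (SE). The folate and FAD carrier Slc25a32 was 29.0 ± 3.63 and 28.7 ± 6.06 CPM. The carriers of S-adenosylmethionine (Slc25a26) and pyrimidine nucleotides (Slc25a33 and Slc25a36) had log2 fold changes between 0.03 and 0.14.

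Of the 8 members of less settled substrate 6 were tested and 1, Slc25a47, was called, where 5.03% of all genes tested were. Slc25a46, which lies in the outer membrane and takes part in mitochondrial dynamics, was 94.8 ± 2.27 CPM in WT and 101 ± 6.20 in HKO livers (SD, n = 4), with a fitted log2 fold change of 0.09 ± 0.07 (SE). Slc25a45 was 14.98 ± 1.62 and 16.4 ± 4.28 CPM, with HKO replicate 3 the highest liver at 22.8 CPM. Slc25a34, Slc25a35 and Slc25a48 were under 5 CPM in every liver and had log2 fold changes of -0.35, -0.21 and -0.13. Slc25a53 had at most 7 counts and Slc25a43, which lies 18288 bases from Slc25a5 on chromosome X, had at most 1 count in any liver.

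Of the 6 members with a seed match, among them Slc25a46 with 1 match of 7 bases, 0 were called, where 5.03% of all genes tested were. A count of 0 among 6 members is close to that share. Of the 6, 3 lay above and 3 below 0, and their log2 fold changes ran from -0.12 to 0.28 with a median of 0.04. The median of the 30 tested members without a match was -0.09. The 3'UTRs of the first had a median length of 2396 bases and those of the second of 1184 bases. The log2 fold changes of all genes tested were not split by match. Slc25a25 and Slc25a40, whose matches are over 8 bases, had log2 fold changes of -0.12 ± 0.24 (SE) and 0.09 ± 0.15 (SE).

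Genes that work with the carriers were counted from lists. Of the 10 genes of the carrier import pathway, such as Tomm70a, Timm9, Timm10 and Timm22, 0 were called, beside 5.03% of all genes tested. The median log2 fold change of the 10 was -0.01. Of 15 tested genes of other mitochondrial membrane transport 2 were called, both lower, or 13.3%, where 3.37% of all genes tested were called lower. Mpc1, a subunit of the mitochondrial pyruvate carrier, fell from 349 ± 31.0 to 255 ± 26.8 CPM (log2 fold change -0.45, adjusted p = 0.0233 from edgeR), while its partner Mpc2 had a log2 fold change of -0.01. Micu2, a gatekeeper of the calcium uniporter, fell from 56.8 ± 10.1 to 36.5 ± 4.11 CPM (log2 fold change -0.64, edgeR adjusted p = 0.0181). Of 11 enzymes of the citrate, malate-aspartate and glycerol phosphate shuttles 2 were called, both lower, or 18.2%, beside the same 3.37%. Gpd1, the cytosolic glycerol phosphate dehydrogenase, fell from 296 ± 30.1 to 169 ± 26.7 CPM (log2 fold change -0.81), and Gpd2, the mitochondrial one, from 83.1 ± 9.60 to 59.2 ± 8.24 CPM (log2 fold change -0.49). Me1, malic enzyme, at -1.31 and Got1, cytosolic aspartate aminotransferase, at 1.33 were not past edgeR's threshold (adjusted p = 0.0657 and 0.0628) and were called by DESeq2. Of 11 transcriptional regulators 1 was called lower and 1 higher, or 9.09% each, beside 3.37% and 1.66% of all genes. Ppara fell from 671 ± 9.53 to 536 ± 35.1 CPM and Hnf4a rose from 446 ± 16.8 to 572 ± 56.7 CPM (SD, n = 4). Ppargc1a, which encodes PGC1α, had a log2 fold change of 0.10 (edgeR adjusted p = 0.858). It was 21.7, 21.5, 20.5 and 19.8 CPM in WT livers 1 to 4. In HKO livers 1 to 4 it was 18.1, 20.4, 16.4 and 34.6 CPM, so HKO replicate 4 was the highest of all.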

How the data were processed

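The authors deposited expected counts per gene, that is, reads shared out among genes by Partek's E/M quantification and not normalized, for 17810 genes and 8 livers. The submitters' notes name STAR and Partek. Versions and annotation are not given in the sources used here, and 0 columns were left unmapped. Coordinates are as listed. All 41 members matched RefSeq GRCm38.p6 by symbol, and 32 start or end within 1 base of it, from which the build was taken as GRCm38. Genotype and replicate number came from the labels. The titles give each library a number of its own, but the descriptions of the WT libraries all begin with the number of WT replicate 1. Columns were matched to samples by title, and whether each library is a separate mouse rests on the titles. The labels name both rRNA depletion and a small RNA kit, so the type of library and its use of strand are uncertain. Of the members, Slc25a21, Slc25a25, Slc25a26, Slc25a35 and Slc25a53 overlap other listed genes.

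Counts were rounded and tested with edgeR 4.0.16 in R 4.3.3 (filterByExpr, minimum count 10, TMM scaling, robust quasi-likelihood test, Benjamini-Hochberg adjustment over 12395 genes, threshold 0.05). Alternatives used limma 3.58.1 (voom), DESeq2 1.42.0, other scalings and filters, the replicate number as a block and each liver left out. On simulated counts for 12395 genes in 4 WT and 4 HKO livers, edgeR recovered 91% of genes changed by 2 and 66% of those changed by 1 on the log2 scale. Of its calls there, 4.27% were genes left unchanged. The tested members had log2 fold changes between -0.84 and 0.35, and changes that small were not simulated. Members, lists and tests were chosen with earlier results of these data known. One tested member counts in the totals and is not reported here by name. All other members are named, and values per liver are given for those called by any of the 3 models, those without overlap and the 5 highest per kilobase, with a few others chosen after their values were seen. Protein sequences were not used here.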

Additional observations from a re-analysis of the deposited data

Results flagged for a closer look

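Among 72 groups of 4 livers, the WT and the HKO values of the 36 tested carriers, 5 held 1 liver well apart from its group, and about 3.6 would by chance. Slc25a24 was 7.26 CPM in HKO replicate 2 against 1.92 to 2.30 CPM in the other HKO livers. Slc25a39 was 123 CPM in the same liver against 104 to 105 CPM. Slc25a5 was 330.4 CPM in HKO replicate 1 against 381 to 385 CPM. Slc25a45 was 22.8 CPM in HKO replicate 3 against 13.7 to 14.6 CPM. Slc25a36 was 3.68 CPM in WT replicate 3 against 2.40 to 2.56 CPM.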

How the results depend on the processing

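Slc25a10 and Slc25a47 were called lower under all 16 alternatives run, with log2 fold changes from -0.93 to -0.77 and from -0.57 to -0.39, and 0 members were called higher under any. Ucp2 was also called by DESeq2 and without WT replicate 4, and its adjusted p ran from 0.0111 to 0.245 over the alternatives. The log2 fold changes of the 8 carriers plotted by liver kept their sign throughout. Leaving out 1 liver at a time, 2 to 3 members were called, of which 0 higher and 2 to 3 lower, and between 212 and 598 genes in all against 624 with all livers, with 212 without WT replicate 2, 272 without WT replicate 1 and 364 without HKO replicate 4. DESeq2 called 1014 genes. The edgeR method before version 4, an alternative chosen after seeing the data, called 638. With 8-base matches alone, 2 members held a seed match. Total count scaling gave 5 members without overlap, against 4. Over the union of annotated exons Slc25a5 averaged 239.7 and Slc25a47 82.1 CPM per kilobase over the 8 livers, and both kept their places. No sign was seen that the replicate numbers pair the mice, though 4 pairs are too few to exclude it. The deviations of same-numbered livers correlated between -0.15 and 0.01, and 0 of 8 livers correlated best with its own number. With the number as a replicate block 2 members and 456 genes were called. The 5 members with too few counts were not tested in the main fit, and small differences in them were not detectable at these depths. With no expression filter 2 members were called, and Slc25a2 was at a log2 fold change of 0.24 (edgeR adjusted p = 0.886).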
